A study of Mus musculus with 2 samples.

Results

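The genes followed here are 5 receptors through which nerves and circulating hormones reach the endocrine pancreas: Adra2a and Adrb1 for adrenaline and noradrenaline, Chrm3 and Chrm4 for acetylcholine, and Avpr1b for vasopressin. They were taken by symbol from the 33038 genes listed in the deposited count matrices, and all 5 were present in both libraries. RevGel-seq, which prepares single cells for RNA sequencing by tying each to a barcoded bead within a reversible hydrogel, had been applied to handpicked, trypsin-dissociated pancreatic islets of C57BL/6J mice at 8 weeks of age, which the methods state were male. There was 1 group, control islets, with 2 libraries of 10000 input cells each. The methods describe them as technical replicates, so the spread between them holds no difference between animals.

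Islets hold beta cells, which secrete insulin, alpha cells, which secrete glucagon, delta cells, which secrete somatostatin, and gamma cells, which secrete pancreatic polypeptide. All the receptors described here are G protein-coupled and differ in the G protein they use. Adra2a and Chrm4 signal through Gi, which lowers cyclic AMP and can open potassium channels; Adrb1 signals through Gs, which raises cyclic AMP; Chrm3 and Avpr1b signal through Gq, which activates phospholipase C and releases calcium from stores. Sympathetic nerves restrain insulin release and promote glucagon release, and parasympathetic acetylcholine promotes insulin release.

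The 2 libraries held 735 and 748 cells, with 15931154 and 17440292 unique molecular identifiers (UMIs, each standing for 1 captured transcript). Medians were 17340 and 18922 UMIs per cell, and no barcode was shared. Cells were grouped by which of insulin (Ins1 plus Ins2), Gcg, Sst and Ppy reached 1% of their UMIs. The 7 groups used for tests were insulin only (182 and 190 cells in libraries 1 and 2), Gcg only (182 and 174), Sst only (35 and 23), Ppy only (54 and 68), Gcg and Ppy (65 and 86), Sst and Ppy (77 and 71) and no hormone (91 and 92), which left 93 cells in other combinations. The summed level of each set of cell-type markers was highest where its hormone would place it: 55094 UMIs per 1000000 for the beta list in insulin only cells, 48189 for the alpha list in Gcg only cells, 6812 for the delta list in Sst only cells and 48317 for the gamma list in Ppy only cells. Of the gamma markers, Aqp3 was at 0 in the Ppy only cells. In the no hormone cells the endothelial list stood at 7440, the ductal at 1124, the stellate and mural at 1105, the leukocyte at 1029 and the macrophage list at 563.

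Levels below are UMIs of a gene per 1000000 UMIs of all genes other than the hormones (CPM), summed over the cells of a group. Differences between groups were tested with edgeR's quasi-likelihood test on these sums with all genes in the fit, and a gene was called at a Benjamini-Hochberg adjusted p under 0.05 over the 14955 genes tested. Chrm4, with 23 UMIs in all, did not pass the filter on low counts, and 4 receptors were tested. All p-values below come from this test and measure the spread between libraries of 1 preparation only. Levels of different receptors are not set against each other.

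Adra2a, the alpha-2A adrenergic receptor that restrains insulin secretion, was a receptor of the insulin only cells. Its level there was 181 CPM in library 1 and 177 CPM in library 2 (mean 179 ± 3.07, SD, n = 2). Gcg only cells held 2.29 and 3.19 CPM, and Ppy only cells 1.72 and 1.76 CPM. Cells with Sst lay between: Sst only cells reached 30.8 and 40.2 CPM, and Sst and Ppy cells 26.0 and 45.7 CPM. In both libraries Sst only and Sst and Ppy cells were above Gcg only, Ppy only and Gcg and Ppy cells, and below insulin only cells. The beta marker list was also high in Sst only cells (15248 and 15541 CPM summed), nearly all of it Iapp (15053 and 15357 CPM) and Pdx1 (154 and 154 CPM), while the beta markers Mafa (2.20 and 0 CPM) and Ucn3 (0 and 3.35 CPM) were at or near 0 there. Of the 1240 Adra2a UMIs in the data, 73.5% were in insulin only cells and 10.9% in cells with insulin and another hormone, whose levels were 113 and 93.6 CPM.

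**Figure D1:**
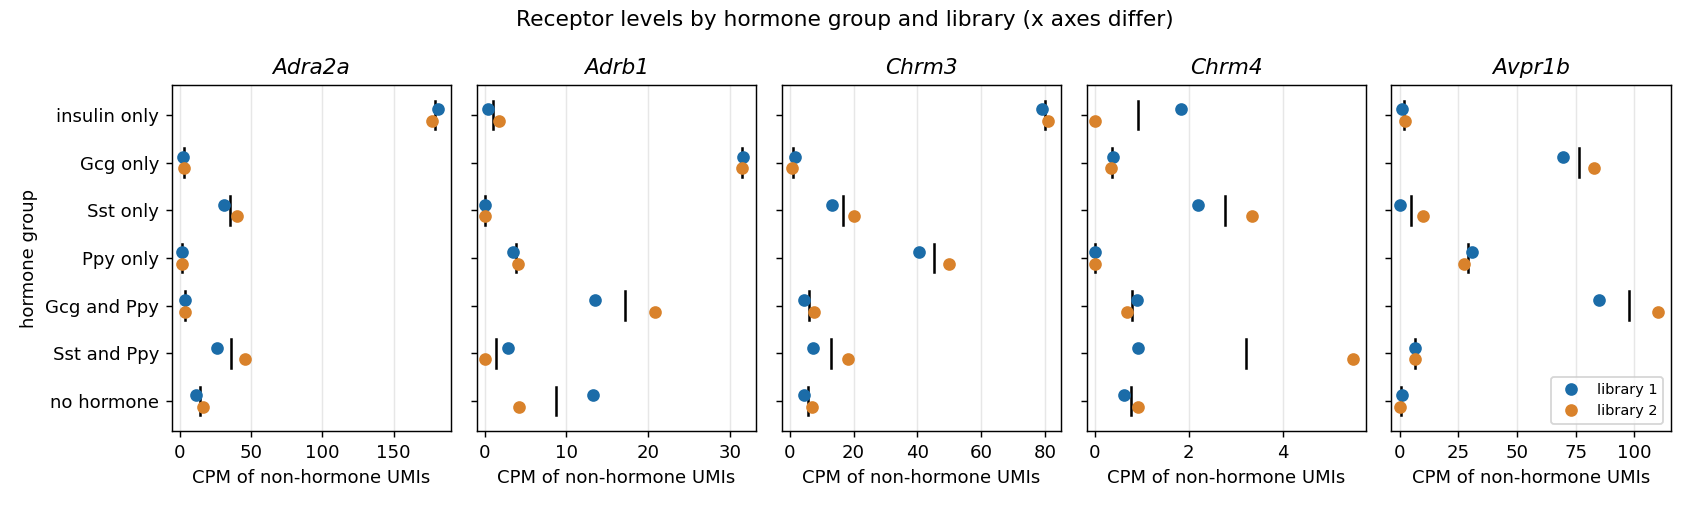
Level of each receptor in UMIs per 1000000 (hormone genes left out, linear axis starting at 0) in the 7 hormone groups, with 1 dot per library and a black line at the mean. Adra2a peaks in insulin only cells (179), Adrb1 in Gcg only cells (31.6), Chrm3 in insulin only (79.9) and Ppy only (45.1) cells, and Avpr1b in Gcg and Ppy (97.5) and Gcg only (76.3) cells, while Chrm4 rests on 6 UMIs or fewer in each sum.

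Adra2a was higher in insulin only than in Gcg only cells by 6.02 ± 0.30 on the log2 scale (SE, adjusted p = 1.44e-09), a ratio of pooled levels of 65.1 with a 95% counting interval of 39.3 to 117. All 4 tested receptors were called in this comparison, where 25% of all genes were called. The receptors were chosen with earlier results of these data known. Counts of receptors called, here and below, are therefore no test of whether receptors differ more than other genes. For Adra2a the difference against Ppy only cells was 6.68 ± 0.36 (adjusted p = 6.03e-09) and against Sst only cells 2.52 ± 0.29 (adjusted p = 2.02e-05). There were 3 receptors called against Ppy only cells, with 20.2% of all genes called, and 2 against Sst only cells, with 14.5%. Sst only cells were in turn above Gcg only cells by 3.50 (a log2 change of -3.50 ± 0.44 for Gcg only minus Sst only, adjusted p = 7.11e-05) and above Ppy only cells by 4.15 ± 0.53 (adjusted p = 1.13e-04). Gcg only and Ppy only cells were not told apart (0.66 ± 0.64, adjusted p = 0.639).

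The full order of Adra2a was therefore insulin only, then Sst and Ppy (35.9 CPM) and Sst only (35.5), then no hormone (13.8), then Gcg and Ppy (3.53), Gcg only (2.74) and Ppy only (1.74). Neighbours within the Sst pair and within the last 3 groups did not differ beyond their spread. No hormone cells were below Sst only cells (1.12 ± 0.37, adjusted p = 0.0216, with 44.7% of all genes called) and above Gcg and Ppy cells (-2.03 ± 0.44 for Gcg and Ppy minus no hormone, adjusted p = 0.00127, with 51.2%).

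Adrb1, the beta-1 adrenergic receptor, was high in Gcg only and low in insulin only cells, the reverse of Adra2a in that pair. It reached 31.6 CPM in library 1 and 31.5 CPM in library 2 in Gcg only cells (mean 31.6 ± 0.0667), and these cells held 63.2% of its 272 UMIs. Insulin only cells held 1 and 4 UMIs (0.369 and 1.68 CPM), and all 4 of library 2 came from 1 cell. None was found in Sst only cells, where 3 UMIs over both libraries would be 3.98 CPM. None was found in cells with insulin and another hormone either. Ppy only cells were low at 3.44 and 4.10 CPM, and Gcg and Ppy cells stood at 13.4 and 20.9 CPM, below Gcg only cells in both libraries.

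Adrb1 was lower in insulin only than in Gcg only cells (a log2 change of -4.86 ± 0.68, adjusted p = 1.06e-04), a pooled ratio of 32.1 in favour of Gcg only cells (95% counting interval 13.5 to 100.1). Gcg only cells were at least 7.93-fold higher than Sst only cells, taking 3 UMIs over the Sst only group as the floor (adjusted p = 0.00464), and higher than Ppy only cells by 3.04 ± 0.61 (adjusted p = 0.00593). The background in these comparisons was 12.3% of all genes called against Sst only, with all 4 tested receptors called, and 9.49% against Ppy only, with 3. Single sums decided calls here: the adjusted p against Ppy only was 0.0631 and 0.0677 without the Gcg only sum of library 1 or 2 and 0.0778 and 0.0995 without the Ppy only sum of library 1 or 2, and that against Sst only was 0.0740 without the Sst only sum of library 1. After Gcg only, the order was Gcg and Ppy (17.2 CPM), no hormone (8.69), Ppy only (3.77), Sst and Ppy (1.4) and insulin only (1.03). From Gcg only to Gcg and Ppy (adjusted p = 0.944), on to no hormone (adjusted p = 0.165) and on to Ppy only (adjusted p = 0.177), no neighbour differed beyond its spread. Nor did Ppy only from Sst and Ppy cells (adjusted p = 0.477) or those from insulin only cells (adjusted p = 0.905). Further apart in the order, Gcg only and no hormone cells did differ (1.86 ± 0.53, adjusted p = 0.00797, with 55.1% of all genes called).

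Adra2a and Adrb1 lie 2.67 megabases apart on chromosome 19, on the same strand. In the GENCODE annotation of GRCm38, Adra2a (ENSMUSG00000033717) spans chr19:54044151-54048982 and Adrb1 (ENSMUSG00000035283) chr19:56722199-56733113, each with its coding sequence in 1 exon (1395 and 1398 coding bases). The promoters of this pair are shown because the neighbours were highest in different cell groups. The 250 bases before the RefSeq start of Adrb1 (chr19:56721867-56722116, plus strand, GRCm38.p6) touch no GENCODE exon of the gene. In the sequence, capitals mark a GC box (GGGCGG, read on the other strand as CCGCCC) 196 bases and a CCAAT box (CCAAT, read as ATTGG) 101 bases before the start.

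Adrb1 promoter: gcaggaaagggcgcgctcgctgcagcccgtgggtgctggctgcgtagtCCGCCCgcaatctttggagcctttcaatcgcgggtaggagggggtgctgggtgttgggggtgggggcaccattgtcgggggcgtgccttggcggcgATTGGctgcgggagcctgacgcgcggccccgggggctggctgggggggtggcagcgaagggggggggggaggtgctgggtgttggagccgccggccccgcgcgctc

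The same stretch before the RefSeq start of Adra2a lies wholly within the first exon of a longer GENCODE transcript of the gene, so 30 bases around its TATA box (TATAAA, in capitals, 23 bases before the start) are given (chr19:54045218-54045247, plus strand).

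Adra2a promoter: tcatcctggggcTATAAAaccagtccagcg

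The letters TATAAA were found on either strand in 12.4% of the 32851 RefSeq promoters of this length, CCAAT in 33.8% and GGGCGG in 32.7%. GC content was 67.6% for Adra2a, 74% for Adrb1 and 52.4% for the median promoter. Adra2a also held 1 GGGCGG, and 1 E-box (CANNTG, found in 66.2% of promoters), neither of which overlaps its TATA box. Neither promoter held a cyclic AMP response element (TGACGTCA, 1.55% of promoters), a homeodomain core (TAATTA, 4.84%) or a Maf site (TGCTGA, 16.1%). Such matches describe letters only. The Chrm3 promoter held none of the 7 motifs. The Chrm4 promoter held 1 CCAAT, 3 GGGCGG, of which a pair overlap, and 1 CANNTG. Avpr1b was without an entry in the promoter table used.

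Chrm3, the M3 muscarinic receptor through which acetylcholine promotes insulin release, was high in a pair of groups. Insulin only cells held 79.0 and 80.9 CPM in libraries 1 and 2 (mean 79.9 ± 1.32), and Ppy only cells 40.4 and 49.8 CPM (45.1 ± 6.68). Gcg only cells were near 0, with 4 and 2 UMIs (1.52 and 0.708 CPM). Sst only cells held 13.2 and 20.1 CPM and Sst and Ppy cells 7.44 and 18.3 CPM. Insulin only cells accounted for 58.2% of the 697 Chrm3 UMIs and Ppy only cells for 18.9%. Chrm3 (ENSMUSG00000046159, chr13:9875486-10360847, minus strand) has a single coding exon of 1767 coding bases within 485362 bases, and 6 annotated genes overlap its span, none of them by exons.

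Chrm3 was higher in insulin only than in Gcg only cells by 6.12 ± 0.42 on the log2 scale (adjusted p = 4.67e-08, pooled ratio 72.5 with a 95% counting interval of 33.0 to 199) and than in Sst only cells by 2.47 ± 0.41 (adjusted p = 7.02e-04). Ppy only cells were above Gcg only cells by a pooled ratio of 41.8 (18.7 to 116), a log2 change of -5.25 ± 0.45 for Gcg only minus Ppy only (adjusted p = 2.83e-06). Sst only cells were also above Gcg only cells (-3.65 ± 0.70 for Gcg only minus Sst only, adjusted p = 0.00235).

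The smaller step from insulin only to Ppy only cells was 0.87 ± 0.27 (adjusted p = 0.0327), a pooled ratio of 1.74 (1.42 to 2.13). This call was lost without any 1 of the 4 sums it rests on (adjusted p = 0.135 and 0.174 without the insulin only sum of library 1 or 2, 0.231 and 0.112 without the Ppy only sum of library 1 or 2) and with DESeq2 (0.194). Ppy only cells exceeded Sst only cells (-1.60 ± 0.44 for Sst only minus Ppy only, adjusted p = 0.0337). There were 3 receptors called between the Sst only and Ppy only groups, with 9.08% of all genes called. That Chrm3 call was likewise lost without any 1 sum (0.284 and 0.0797 without the Sst only sum of library 1 or 2, 0.0644 and 0.167 without the Ppy only sum of library 1 or 2), with DESeq2 (0.115) and with groups drawn at 0.5% of UMIs (0.138). Below Ppy only cells, Sst only (16.6 CPM), Sst and Ppy (12.9), Gcg and Ppy (6.07) and no hormone (5.67) followed, and no neighbours among these 4 differed beyond their spread. Gcg only cells (1.12 CPM) came last and were below no hormone cells (-2.38 ± 0.60, adjusted p = 0.0035).

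Chrm4, the M4 muscarinic receptor, was almost absent from these libraries, with 23 UMIs in 20 of 1483 cells. Insulin only cells held 5 UMIs in library 1 and 0 in library 2, Sst and Ppy cells 1 and 6, Gcg only cells 1 and 1, Sst only cells 1 and 1, and Ppy only cells 0 and 0. The 2 libraries thus put their highest count in different groups. By level, library 1 stood highest in Sst only cells among the 7 groups (2.20 CPM, from 1 UMI). The pooled ratio of Sst and Ppy to insulin only cells was 3.28 with a counting interval of 0.897 to 13.1, which spans 1. Set against Gcg only cells it was 8.79 (1.67 to 86.8), and against Ppy only cells the lower limit was 1.91. These 2 intervals exclude 1, but they carry counting error only, and 6 of the 7 Sst and Ppy UMIs came from library 2. With Chrm4 admitted to the edgeR test without the filter, 0 of its 8 main comparisons were called and 0 had an unadjusted p under 0.05 (smallest 0.0623, Sst only against Ppy only). In these main comparisons no difference was detectable at this depth. They set Sst and Ppy cells against Sst only cells and no other group. The GENCODE model of Chrm4 (ENSMUSG00000040495, chr2:91927249-91928688, plus strand) ends 3 bases after its coding part, whereas the other receptors have 1373 to 2258 bases there and RefSeq runs Chrm4 1147 bases further, and the part of this in its low count was not tested.

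Avpr1b, the V1b vasopressin receptor, was a receptor of cells with Gcg. Gcg only cells held 69.7 and 82.9 CPM in libraries 1 and 2 (mean 76.3 ± 9.31) and Gcg and Ppy cells 85.1 and 109.9 CPM (97.5 ± 17.5). Ppy only cells held 30.9 and 27.6 CPM, below both groups with Gcg in each library. Insulin only cells held 3 and 6 UMIs (1.11 and 2.53 CPM), Sst only cells 0 and 3 UMIs, and no hormone cells 2 and 0 UMIs. The groups with Gcg took 51.0% (Gcg only) and 31.0% (Gcg and Ppy) of the 817 Avpr1b UMIs. Avpr1b (ENSMUSG00000026432) lies at chr1:131599239-131612000 on the plus strand and has 2 coding exons with 1263 coding bases.

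Avpr1b was lower in insulin only than in Gcg only cells (-5.33 ± 0.44, adjusted p = 3.29e-07), a pooled ratio of 43.2 in favour of Gcg only cells (95% counting interval 22.6 to 95.2), and lower than in Ppy only cells (-3.92 ± 0.50, adjusted p = 4.01e-05). Gcg only cells were above Sst only cells by 4.34 ± 0.62 (adjusted p = 1.97e-04) and above Ppy only cells by 1.41 ± 0.31 (adjusted p = 0.00895, pooled ratio 2.65 with an interval of 2.09 to 3.39). The call against Ppy only was lost without the Gcg only sum of library 1 or 2 (adjusted p = 0.0601 and 0.137) or the Ppy only sum of library 1 or 2 (0.0768 and 0.156). Sst only cells were below Ppy only cells (-2.93 ± 0.73, adjusted p = 0.0199), with a log2 change of -1.65 (adjusted p = 0.262) without the Sst only sum of library 1, which holds 0 UMIs, adjusted p = 0.0711 and 0.0650 without the Ppy only sum of library 1 or 2, and adjusted p = 0.141 with groups drawn at 0.5% of UMIs. In the order of levels, Gcg and Ppy and Gcg only cells came first, Ppy only cells (29.2 CPM) next, and then Sst and Ppy (6.46), Sst only (5.03), insulin only (1.82) and no hormone cells (0.629). Sst and Ppy and Sst only cells were not told apart (adjusted p = 0.954). Insulin only cells were not told apart from Sst only cells (adjusted p = 0.635) or from no hormone cells (adjusted p = 0.22, with 56.8% of all genes called).

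**Figure D2:**
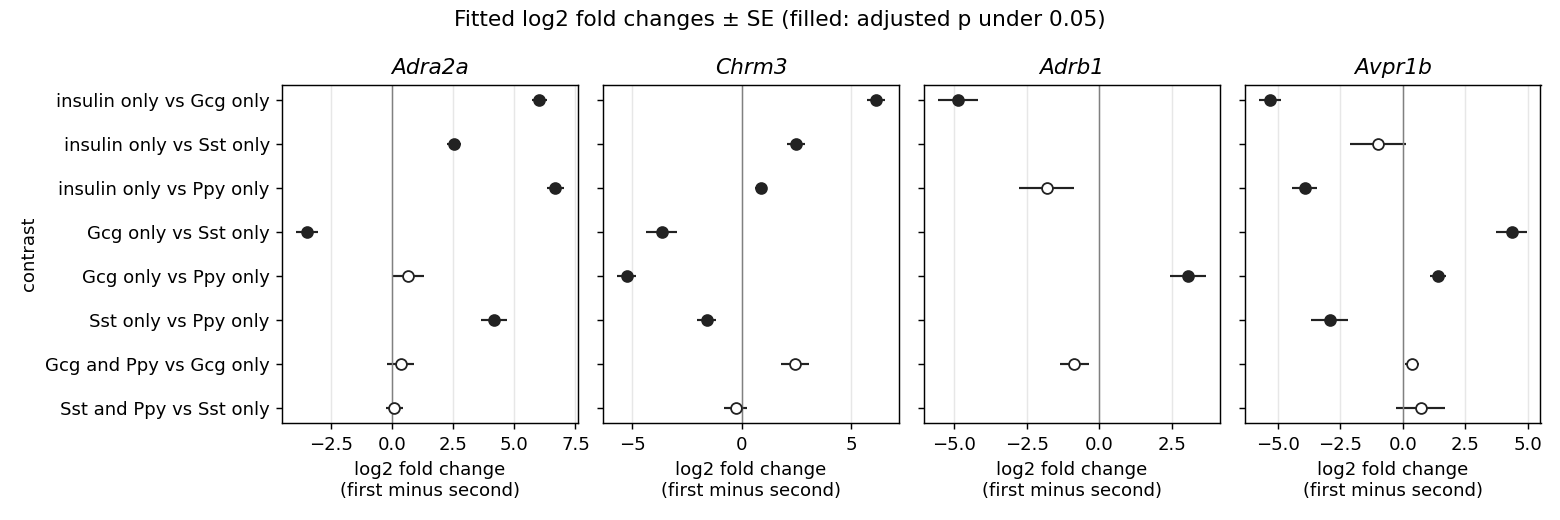
Log2 fold change (first group minus second, point) with its standard error (bar) for the tested receptors in the main comparisons between hormone groups, filled where the adjusted p is under 0.05 and open otherwise; comparisons of Adrb1 with the Sst only cells, which hold 0 of its UMIs, are left out. Adra2a (6.02) and Chrm3 (6.12) lie on one side of 0 and Adrb1 (-4.86) and Avpr1b (-5.33) on the other in insulin only against Gcg only cells, and all points of Gcg and Ppy against Gcg only and of Sst and Ppy against Sst only are open.

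Over the 6 pairs of single-hormone groups, with 4 receptors tested in each, 19 receptor differences were called. Of all genes, 9.08% to 25% were called per pair. Because the receptors were chosen with earlier results of these data known, the count of 19 is not read against that share. In each of the 19 both libraries taken alone gave the same sign (38 of 38 values). The calls came from these same libraries, so this agreement was largely set in advance and is no separate support. The sign also held under every alternative tried.

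Cells with a second hormone were compared with the group that shares their first. Gcg and Ppy cells had a median of 19.5% of UMIs from Gcg and 3.92% from Ppy, and Gcg only cells 24.3% and 0.112%. Between them 0 of 4 receptors were called, with 0.0401% of all genes called (6 genes): Adra2a differed by 0.34 ± 0.56 (adjusted p = 1), Adrb1 by -0.87 ± 0.50 (0.944), Avpr1b by 0.35 ± 0.28 (0.964) and Chrm3 by 2.41 ± 0.64 (0.459, unadjusted p = 0.0019). Chrm3 was the receptor with an unadjusted p under 0.05, and its counts were 5 and 11 UMIs in Gcg and Ppy cells against 4 and 2 in Gcg only cells. DESeq2 and each left-out sum also called 0 of the 4 receptors.

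Set against Ppy only cells instead, Gcg and Ppy cells differed in 2 of 4 receptors, with 3.31% of all genes called. Avpr1b was lower in Ppy only cells (-1.76 ± 0.32, adjusted p = 0.00524) and Chrm3 higher (2.84 ± 0.39, adjusted p = 6.43e-04), while Adrb1 did not pass (-2.17 ± 0.67, adjusted p = 0.109). Sst and Ppy cells against Sst only cells gave 0 of 4 receptors, with 0.0134% of all genes called (2 genes). Adra2a differed there by 0.08 ± 0.34, Avpr1b by 0.70 ± 0.98 and Chrm3 by -0.28 ± 0.54, with adjusted p of 0.954 or more in edgeR, and the unadjusted p was above 0.05 for each of the 4. Against Ppy only cells, Sst and Ppy cells had more Adra2a (-4.23 ± 0.45 for Ppy only minus Sst and Ppy, adjusted p = 1.75e-05), less Chrm3 (1.88 ± 0.35, adjusted p = 0.00289) and less Avpr1b (2.23 ± 0.48, adjusted p = 0.00676), with 9.11% of all genes called.

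Detection was then counted in single cells. Adra2a was found in 77.5% of insulin only cells of library 1 and 71.6% of library 2 (exact 95% intervals 70.7 to 83.3 and 64.6 to 77.9), against 2.75% and 3.45% of Gcg only cells. Free RNA can put a transcript into cells that do not make it. No hormone cells with leukocyte or endothelial markers served as the background. In the 62 with leukocyte markers (median 10738 UMIs), Adra2a was found in 2, Adrb1 in 1 and the others in 0. In the 62 with endothelial markers (median 15851 UMIs), Adra2a was found in 2, Adrb1 in 3, Chrm3 in 9 and the others in 0. A count of 0 allows up to 4.84% of cells in either set. Insulin only cells had medians of 19642 and 17169 UMIs and Gcg only cells 16413 and 19534. When each cell was thinned to 3000 UMIs outside the hormone genes, which left out no cell, Adra2a remained in 33.0% and 33.7% of insulin only cells and in 0.549% and 0.575% of Gcg only cells.

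Chrm3 was found in 62.6% and 52.1% of insulin only cells (24.7% and 14.2% after thinning) and in 50% and 48.5% of Ppy only cells (14.8% and 14.7%), whose medians were 28784 and 30339 UMIs. In library 2 the thinned shares of these groups thus lay close together. Avpr1b was found in 44.5% and 51.1% of Gcg only cells (18.1% and 17.2%), in 58.5% and 54.7% of Gcg and Ppy cells (20% and 27.9%) and in 1.1% and 1.58% of insulin only cells. Adrb1 was found in 20.9% and 25.3% of Gcg only cells (8.79% and 8.05%), so most Gcg only cells held no Adrb1 UMI at this depth. These intervals and shares carry counting error only.

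**Figure D3:**
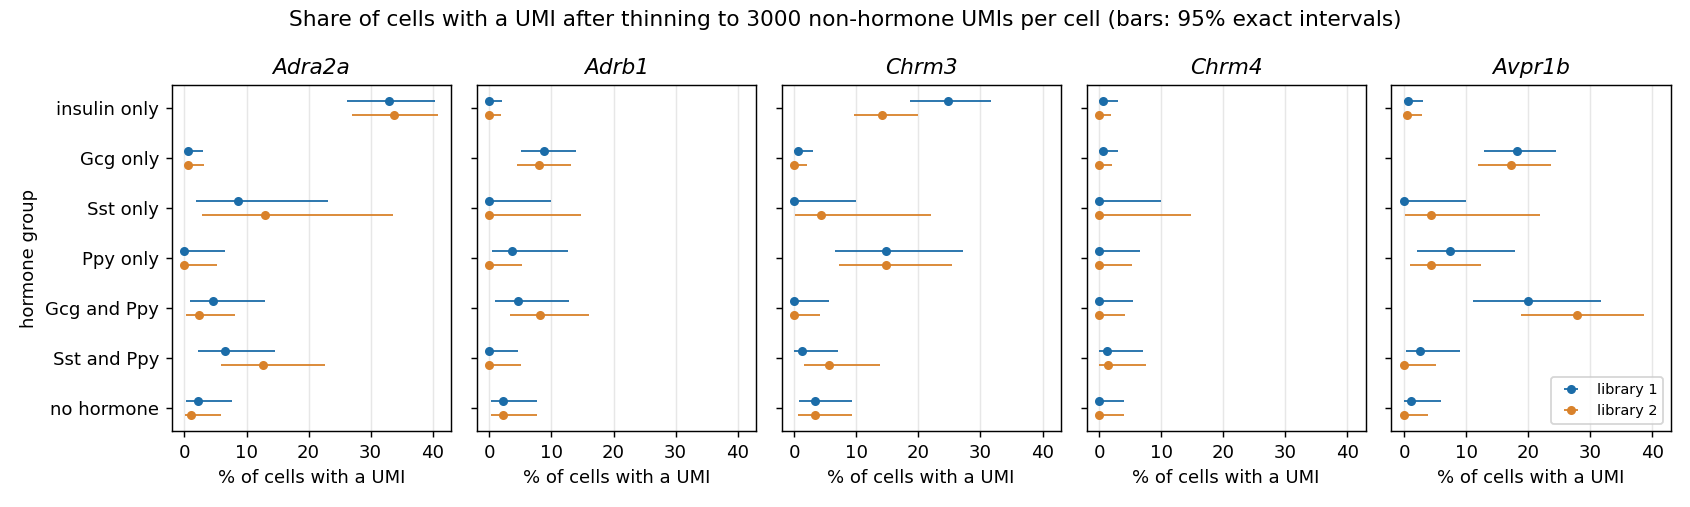
Share of cells with at least 1 UMI of each receptor after every cell was thinned to 3000 UMIs, by hormone group and library, with exact 95% binomial intervals. Insulin only cells stand apart for Adra2a (33.0% and 33.7%), cells with Gcg for Avpr1b (17.2% to 27.9%), and Chrm3 is found in insulin only and Ppy only cells.

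The number of transcripts per cell was spread widely among the cells of a group. In insulin only cells of library 1, 41 cells held 0 Adra2a UMIs, 45 held 1, 65 held 2 to 4 and 31 held 5 or more, with a highest count of 27. Library 2 gave 54, 46, 60 and 30 cells and a highest count of 14. Adrb1 in Gcg only cells was 0 in 144 and 130 cells and reached 7 and 10 in single cells. Avpr1b in Gcg only cells was 0 in 101 and 85 cells and reached 16 and 11.

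**Figure D4:**
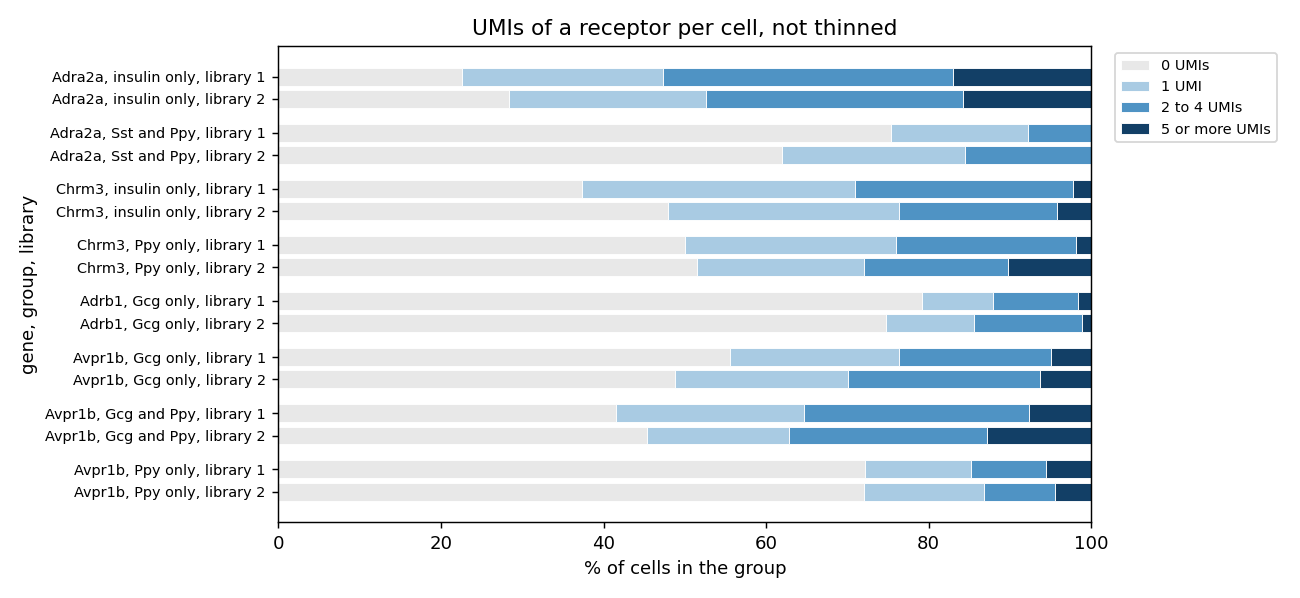
Share of cells with 0, 1, 2 to 4 and 5 or more UMIs for the 8 receptor and group pairs shown, each with 1 bar per library. In insulin only cells 31 and 30 cells held 5 or more Adra2a UMIs. For Adrb1, 3 and 2 Gcg only cells held 5 or more. Counts of different receptors are not set against each other.

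Detection of 2 receptors in the same cell was also counted. Adra2a and Chrm3, which act on insulin release in opposite directions, were both found in 89 of 182 insulin only cells of library 1 (48.9%) and 74 of 190 of library 2 (38.9%), and neither was found in 16 and 29. Adrb1 and Avpr1b were both found in 15 of 182 (8.24%) and 23 of 174 (13.2%) Gcg only cells, and neither in 78 and 64. In Ppy only cells, Avpr1b and Chrm3 were both found in 8 of 54 and 10 of 68. These are descriptions of detection at the depths given above. They were not set against the overlap that the separate detection shares would give, so no tendency to occur together is read from them.

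Within a group, cells were also divided at the median share of their own hormone, separately in each library, a division chosen after values had been seen and given with no test. Adra2a was level across insulin only cells, at 179 and 170.0 CPM in the lower part and 185 and 187 CPM in the upper part of libraries 1 and 2. Chrm3 was 76.5 and 84.3 CPM in the lower part and 82.9 and 75.7 CPM in the upper part. All 5 Adrb1, all 9 Avpr1b and all 5 Chrm4 UMIs of insulin only cells came from the part with less insulin. They lay in only 2, 5 and 3 cells, and 1 cell held 4 of the Adrb1 UMIs. In Gcg only cells Avpr1b was lower in the part with less Gcg, at 58.9 and 72.2 CPM against 79.6 and 92.5 CPM. Adrb1 was 46.2 CPM there against 18.3 CPM in library 1, but 31.3 against 31.7 CPM in library 2, so the libraries did not share a direction. In Ppy only cells Avpr1b was 38.7 and 38.8 CPM in the part with less Ppy and 21.2 and 16.4 CPM in the part with more, and Chrm3 29.4 and 45.9 CPM against 54.1 and 53.7 CPM.

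The receptors found in cells with no hormone came from few cells of particular kinds, read by at least 3 detected markers of a list. Of the 30 Adrb1 UMIs there, 23 were in 7 of 18 cells with macrophage markers, 17 of them in library 1 and 6 in library 2 (102 CPM pooled). Of the 53 Adra2a UMIs, 32 were in 4 of 15 cells with ductal markers, 12 and 20 by library (62.3 CPM pooled). Of the 22 Chrm3 UMIs, 15 were in 9 of 62 cells with endothelial markers (11.7 CPM pooled). Avpr1b had 2 UMIs in the 183 no hormone cells, where 3 would set the floor.

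Other members of the same receptor families were then examined. Of the other adrenergic receptors, Adra1a, Adra1b, Adra2b and Adra2c were listed but did not pass the filter on low counts. The muscarinic and the vasopressin and oxytocin families were counted in insulin only against Gcg only cells with 12.8% of all genes called higher and 12.2% lower: of the 2 tested muscarinic receptors 1 was higher (median log2 change 3.98, all genes 0), and of the 3 tested vasopressin and oxytocin receptors 2 were lower (median -5.33).

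Between 9.08% and 25% of all genes were called in each of the 6 pairs of single-hormone groups. Oxtr, the oxytocin receptor, which like Avpr1b couples to Gq, was called in all 6. It held 109 and 128 CPM in Gcg only cells, 61.5 and 67.0 in Sst only cells, 17.2 and 9.38 in Ppy only cells and 2.21 and 2.95 in insulin only cells. How many of all genes are called in all 6 pairs was not counted, so these calls are not read as particular to Oxtr. Oxtr and Avpr1b thus shared their low level in insulin only cells, and Sst only cells held Oxtr with 3 UMIs of Avpr1b in all. Avpr1a, the V1a receptor, was found in the groups with Sst, with 13.2 and 36.9 CPM in Sst only cells and 17.7 and 22.9 CPM in Sst and Ppy cells. It was higher in Sst only than in insulin only (-5.01 ± 0.99 for insulin only minus Sst only, adjusted p = 0.00327), Gcg only (-6.39 ± 1.12, adjusted p = 0.00139) and Ppy only cells (5.71 ± 1.19, adjusted p = 0.00681). Avpr2 was listed with 0 UMIs in the 14 sums. Chrm2, the M2 muscarinic receptor, was the other muscarinic receptor tested, and its 22.0 and 61.6 CPM in no hormone cells stood against 1.86 CPM or less in every sum of the hormone groups. In library 2, 76 of its 133 UMIs in no hormone cells came from 2 barcodes, without which the level there was 30.2 CPM. The remaining 92 UMIs of both libraries were all in cells with endothelial markers (22 of 62).

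**Figure D5:**
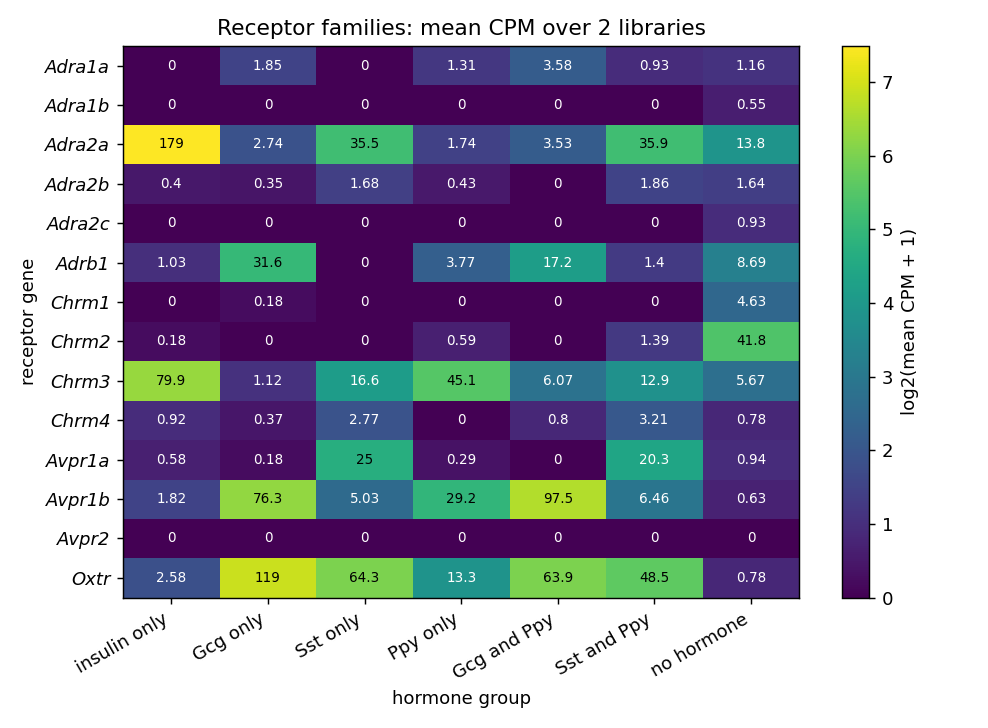
Mean level over both libraries of 14 adrenergic, muscarinic, vasopressin and oxytocin receptor genes in the 7 hormone groups, coloured by log2(CPM + 1) with the CPM printed in each cell. Adra2a and Chrm3 are high in insulin only cells, Oxtr (119) and Avpr1b (76.3) in Gcg only cells, Avpr1a (25.0) in Sst only cells and Chrm2 (41.8) in no hormone cells.

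The signalling genes behind these receptors were counted as lists, described in insulin only against Gcg only cells. Of 11 tested genes of the Gq arm, 4 were higher and 2 lower (median log2 change 0.32, all genes 0), where 12.8% of all genes were called higher and 12.2% lower. Of the inositol trisphosphate receptors, which release calcium from stores, Itpr2 was higher, Itpr1 lower and Itpr3 not called (0.32 ± 0.26, adjusted p = 0.418). Itpr2 stood at 81.6 and 91.4 CPM in insulin only and 8.38 and 6.37 CPM in Gcg only cells (3.58 ± 0.37, adjusted p = 3.87e-06), and Itpr1 at 85.3 and 104 CPM against 449 and 398 CPM (-2.12 ± 0.17, adjusted p = 2.80e-07). The protein kinase C genes Prkca (1.36 ± 0.25, adjusted p = 8.82e-04) and Prkcb (0.95 ± 0.17, adjusted p = 7.00e-04) and the G protein alpha subunit Gna11 were higher, and its close relative Gnaq was lower (-0.39 ± 0.13, adjusted p = 0.0425).

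Of 7 tested genes of the Gi arm, 1 was higher (Gnai2) and 2 lower (median -0.63), against 12.8% and 12.2% of all genes. Kcnj3, a subunit of the potassium channel that Gi-coupled receptors open, had 0.738 and 0 CPM in insulin only cells against 40.4 and 32.6 CPM in Gcg only, 19.8 and 6.70 CPM in Sst only and 25.8 and 25.8 CPM in Ppy only cells. Its log2 change in insulin only against Gcg only cells was -6.25 ± 0.74 (adjusted p = 1.41e-05). The insulin only cells thus held the most Adra2a and the least Kcnj3 of the 4 single-hormone groups. Kcnj6, another potassium channel gene of that list, was present in insulin only cells at 10.3 and 5.90 CPM. It stood at 12.2 and 13.8 CPM in Gcg only, 13.2 and 13.4 in Sst only and 19.8 and 15.8 in Ppy only cells. Gnai1, a Gi alpha subunit, was 147 and 161 CPM in Gcg only and 59.4 and 50.1 CPM in insulin only cells (-1.46 ± 0.20, adjusted p = 6.51e-05).

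Of 10 tested genes of the Gs arm, 2 were higher and 4 lower (median -0.72), against the same 12.8% and 12.2% of all genes. Gnas, whose locus gives the Gs alpha subunit and other products, was 62.0 and 77.5 CPM in insulin only against 872 and 909 CPM in Gcg only cells (-3.64 ± 0.14, adjusted p = 1.42e-10), and the cyclase gene Adcy6 was also lower (-1.37 ± 0.18, adjusted p = 3.47e-05). Gcg only cells, which held Adrb1, a Gs-coupled receptor, thus also held the higher Gnas level of the pair, while Gnas in Sst only cells, with 0 Adrb1 UMIs, was 1086 and 986 CPM. Of 8 tested desensitisation genes, 1 was higher and 2 lower (median -0.09), and the share higher was near the 12.8% of all genes (12.2% lower). The receptor kinase gene Grk5 was 56.5 and 65.3 CPM in insulin only against 17.5 and 18.8 CPM in Gcg only cells (1.78 ± 0.24, adjusted p = 5.74e-05), and Rgs4, which shortens Gi and Gq signals, was 23.6 and 15.6 CPM against 294 and 223 CPM (-3.67 ± 0.32, adjusted p = 6.40e-07).

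Genes that make, carry or break down the ligands were sparse, with 4 of 11 tested, 2 of them higher and 0 lower in insulin only than in Gcg only cells (median 0.30, edgeR; 12.8% of all genes higher and 12.2% lower). Th, tyrosine hydroxylase of catecholamine synthesis, was 26.2 and 37.9 CPM in insulin only, 11 and 20.1 CPM in Sst only and 0 and 0.354 CPM in Gcg only cells, and was listed at 0 in Ppy only cells. Ddc, the decarboxylase of the same route, was 653 and 769 CPM in insulin only and 392 and 394 CPM in Gcg only cells (0.89 ± 0.26, adjusted p = 0.0198). Ache, the esterase that breaks down acetylcholine, was 79.1 and 107 CPM in Sst only and 1.48 and 4.21 CPM in insulin only cells (-4.85 ± 1.01, adjusted p = 0.00396). In Gcg and Ppy against Gcg only cells, and in Sst and Ppy against Sst only cells, 0 genes of any of these lists were called.

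For each tested receptor, genes whose level was among the most like it over the 14 sums were found by Pearson correlation of log2(CPM + 1) among the 8554 or 8555 other genes whose mean level reached 20 CPM. The sums share libraries and cell makeup, so the values describe likeness only. Adra2a was followed by Muc4 (r = 0.962), Col6a6 (0.953), Rnf150 (0.936), Hspa12a (0.924) and Glp1r (0.923), the incretin receptor, at 1445 CPM in insulin only, 159 in Sst only and 6.45 in Gcg only cells. Adrb1 was followed by Pdk4 (0.942, 142 CPM in Gcg only and 0.606 in insulin only cells), Fam126a (0.907), Amotl1 (0.905) and Npc2 (0.903). Chrm3 was followed by Neat1 (0.906), Leprotl1 (0.895), Chmp4c (0.878) and Sh3pxd2a (0.877). Avpr1b was followed by Kdm7a (0.957), Edn3 (0.949), Cacng4 (0.944), Gria3 (0.943) and Selenoi (0.934). Among the receptors themselves, r was 0.527 for Adra2a with Chrm3 and 0.653 for Adrb1 with Avpr1b, and -0.730 for Adra2a with Adrb1.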

How the data were processed

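Islet cells of 1 preparation were carried through RevGel-seq as 2 libraries, which the study calls technical replicates. The authors' Cytonaut pipeline kept barcodes above the knee found by UMI-tools, aligned reads to exons only against GRCm38 with an Ensembl annotation, removed duplicates and assigned reads to genes. The aligner is not given in the sources used here. The deposited values are UMI counts per gene and cell for each library, not normalized. Exon-only alignment and capture at the poly(A) end mean that a gene with an annotation that stops short can lose counts.

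From these counts, cells were grouped by which hormones reached 1% of their UMIs, all 1483 deposited cells were kept (lowest 4704 UMIs and 1804 genes, highest mitochondrial share 18.8%), and 16 cells (1.08%) called as doublets by Scrublet in scanpy 1.11.5 were kept in and removed as an alternative. Counts were summed per group and library, without Ins1, Ins2, Gcg, Sst and Ppy, which held 26.2% and 26.5% of UMIs. The 14 sums of 7 groups entered 1 edgeR 4.0.16 quasi-likelihood fit (R 4.3.3; TMM, filterByExpr; 7 residual degrees of freedom, biological coefficient of variation 15.4%), with 14955 of 33033 genes tested and p-values adjusted per comparison. The standard error is the log2 fold change divided by the square root of F. Shares carry exact Clopper-Pearson 95% intervals, ratios exact 95% counting intervals, and a count of 0 was given a floor of 3 UMIs over the group. The test was also run on simulated counts with a common spread for all genes and independent sums. That setting cannot vouch for calls on low counts, and no support is drawn from it. The fit was without a replicate term. Sums with the same number come from the same library, and over the 21 pairs of groups the correlation of their deviations ran from -0.0879 to 0.143 (median 0.00722).

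Named genes are the 5 receptors, the fixed lists (adrenergic, muscarinic, vasopressin and oxytocin receptors, Gq, Gi and Gs arms, desensitisation, ligand synthesis and transport) and the 5 genes most like each tested receptor. Some genes that this rule names are not reported here. The receptors and lists were chosen with earlier results of these data known. Of 33038 gene rows, 32971 (99.8%) matched the GENCODE annotation by identifier, and promoters came from a table of RefSeq promoters (GRCm38.p6), which held 4 of the 5 receptors. Alternatives were hormone thresholds of 0.5% and 2%, grouping by the hormone with most UMIs, hormone genes kept, no filter, doublets removed, DESeq2 1.42.0, the replicate block and leaving out each sum; 1 more, removing 2 barcodes of the no hormone cells, was chosen after seeing the data.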

Additional observations from a re-analysis of the deposited data

How the results depend on the processing

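All 19 called receptor differences kept their sign under every alternative, and 19 stayed called with hormone genes kept, no filter on low counts, doublets removed, a 2% threshold, grouping by the hormone with most UMIs (which gives no groups with 2 hormones) and the replicate block. The replicate block changed no call of a receptor and called 3731 genes in insulin only against Gcg only cells (3738 without it) and 7 in Gcg and Ppy against Gcg only (6 without it). With a 0.5% threshold 17 stayed called, and between Sst only and Ppy only cells 1 receptor was called instead of 3. DESeq2 also kept 17. Over all alternatives the adjusted p ran from 0.0166 to 0.231 for Chrm3 in insulin only against Ppy only, from 9.18e-07 to 0.0995 for Adrb1 and 2.78e-05 to 0.156 for Avpr1b in Gcg only against Ppy only, from 5.50e-07 to 0.0740 for Adrb1 in Gcg only against Sst only, and from 1.24e-04 to 0.262 for Avpr1b and 0.00547 to 0.284 for Chrm3 in Sst only against Ppy only.

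Small counts of called genes moved most. Gcg and Ppy against Gcg only gave 6 genes, 153 without the filter and 14 with DESeq2. Sst and Ppy against Sst only gave 2 genes, 66 without the filter, 4 with DESeq2 and 0 at the 2% threshold. The cause was not tested. With DESeq2, 38.0% of called genes were higher in Gcg only against Sst only (48.8% with edgeR) and 62.0% in Sst only against Ppy only (51.5%). Leaving out 1 sum leaves a group with 1 sample, assumed to vary like the others. It gave 2055 to 2389 genes in insulin only against Gcg only (3738 with all sums), 1156 to 1417 against Sst only (2161) and 1515 to 1820 against Ppy only (3016). Gcg only against Sst only gave 1023 to 1286 (1842), Gcg only against Ppy only 496 to 646 (1419) and Sst only against Ppy only 661 to 837 (1358). The groups with 2 hormones gave 4 to 5 and 0 to 1. Receptors called were 4 to 4, 2 to 2, 2 to 2 (3 with all sums), 3 to 4, 1 to 1 (3), 1 to 2 (3), 0 to 0 and 0 to 0 in the same order. Of 192 receptor differences with 1 sum or 1 whole library left out, 172 were unchanged and 20 lost the call. With a sum left out, direction and side of the threshold were judged. Leaving out a whole library gave fold changes with no test, so those differences were judged on direction only and could not lose a call.

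Under the other alternatives 244 of 248 receptor differences kept direction and side of the threshold. Of the levels 76 of 110, and of the shares of cells 38 of 70, moved by less than their spread. Few UMIs limit Chrm4 in every group and Adrb1 and Avpr1b in Sst only cells. No animal was replicated.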

Other observations

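Of the acetylcholine genes in the ligand list, those for synthesis and transport came almost wholly from 2 barcodes of library 2, singled out after their values were seen. Ache, which breaks acetylcholine down, had 588 UMIs in other cells. The 2 barcodes held all UMIs of Slc5a7, the choline transporter (139 and 50), and of Chat, the enzyme that makes acetylcholine (14 and 8), and all but 1 of Slc18a3, the vesicular acetylcholine transporter (66 and 39). Vip stood at 625 and 285 UMIs and Nos1 at 684 and 379 in them, against 15 and 16 UMIs in all other cells together. Of the receptors, they held 47 and 29 UMIs of Chrm2, 7 and 11 of Chrm1, 6 and 2 of Adra2a, 2 and 0 of Chrm4, and 0 of Chrm3, Adrb1 and Avpr1b. Chrm1 had 3 UMIs elsewhere. Their depths were 177513 and 96154 UMIs, ranks 1 and 8 in the library, with 12071 and 10403 genes, and neither was called a doublet.

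Both barcodes fall among the no hormone cells. Without them Adra2a in the no hormone cells of library 2 was 14.3 CPM instead of 16.2, Adrb1 4.77 instead of 4.17, Chrm3 7.96 instead of 6.95 and Chrm4 0 instead of 0.927, and Chrm2 kept 92 UMIs, in 22 of the other no hormone cells.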
